A study of Bos taurus with 4 samples.

Results

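The peaks described here lie on sequences of the bovine genome assembly that carry no chromosome name. Members were all peaks of the 4 deposited lists whose sequence was not one of chromosomes 1 to 29, X, Y or MT, and every one of these sequences had a name starting with NKLS02. There were 4752 such peaks among 95708 in all, and they lay on 579 different sequences. The cells were bovine embryonic stem cells (bESCs), which the labels describe as coming from 1 female blastocyst of day 7, grown on mouse feeder cells in N2B27-type medium with 20 ng/mL FGF2, the tankyrase inhibitor IWR-1 at 2.5 µM and 1% bovine serum albumin. The legend of the study's own figure speaks instead of more than 1 line, without saying from which line each library came. Feeder cells were removed with magnetic beads before the assay. By the labels all 4 libraries shared these conditions and differed in the antibody, with 2 libraries for H3K4me3 and 2 for H3K27me3. By the figure legend the replicates may also differ in the line. No treatment was compared. The only assay was CUT&RUN, in which an antibody guides a nuclease to chromatin carrying a mark and the released DNA is sequenced. The lists hold no control library and no read counts, so the depth behind them is unknown and a peak that is missing is reported as not listed. Without a control library, whether the signal at a peak depended on the antibody was not tested.

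H3K4me3 is a mark of active and poised promoters, whereas H3K27me3 is written by the Polycomb repressive complex at genes kept silent. In pluripotent stem cells both marks can lie together over the promoters of developmental genes, which is termed bivalency. Unplaced sequences are stretches that the assembly could not assign to a chromosome, and in mammalian assemblies they often hold repeated or duplicated DNA, where short reads are difficult to place. The authors removed alignments of low mapping quality before they listed peaks. How much of each unplaced sequence could be read under that filter was not tested. No genome of ARS-UCD1.2, the assembly of the lists, was used here, so the bases, genes and full lengths of these sequences are not given, and the labelled cell type could not be checked against marker genes. The span of a sequence below is the stretch from its first base to the end of its last peak in any list, which is a lower limit of its length.

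In the H3K4me3 lists, 1308 peaks of replicate 1 and 1188 of replicate 2 were unplaced, which made up 5.02% and 4.95% of the list. In the H3K27me3 lists there were 1162 and 1094 such peaks, or 4.76% and 5.15%. The share of peaks was thus close to 5% of the whole list in every library. The whole list includes chromosome X, which held 30.0% and 24.2% of the H3K27me3 peaks but 3.26% and 3.30% of the H3K4me3 peaks. Chromosomes 1 to 29 held 23890 and 22007 H3K4me3 peaks, and only 15943 and 15017 H3K27me3 peaks. Relative to chromosomes 1 to 29, unplaced peaks were therefore more numerous for H3K27me3 than for H3K4me3. By covered length the share was smaller, at 2.78% and 2.82% for H3K4me3 and 2.49% and 2.41% for H3K27me3. Unplaced H3K4me3 peaks covered 1.91 Mb and 1.94 Mb, and unplaced H3K27me3 peaks 6.65 Mb and 7.29 Mb.

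The number of unplaced sequences with at least 1 peak was 479 and 454 for H3K4me3 and 469 and 444 for H3K27me3, in replicates 1 and 2. The 579 sequences spanned 35.3 Mb together. Their spans were short, with a median of 16.4 kb and a middle range from 7.2 kb to 38.3 kb, and 193 of them spanned less than 10 kb while 109 spanned 50 kb or more. The longest by far was NKLS02002208.1, with 9.25 Mb. Most sequences held few peaks. A single peak was all that 47.8% and 49.6% of the sequences with H3K4me3 held, and 58.2% and 59.9% of those with H3K27me3.

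Presence on a sequence was largely shared by both marks. With a mark taken as present where both of its replicates listed a peak, 345 of the 579 sequences (59.6%) carried both marks, 88 (15.2%) carried H3K4me3 only and 67 (11.6%) carried H3K27me3 only. In the other 79 (13.6%) no mark had a peak in both replicates. The 345 sequences with both marks held 86.7% and 88.1% of the unplaced H3K4me3 peaks and 76.7% and 79.6% of the unplaced H3K27me3 peaks. When a peak in either replicate was enough, 422 sequences carried both marks, 78 H3K4me3 only and 79 H3K27me3 only. By peaks in both replicates, sequences with H3K27me3 only had the longest median span. It was 25.6 kb, against 17.8 kb with both marks and 14.7 kb with H3K4me3 only. By a peak in either replicate the medians were closer, at 19.8 kb, 18.0 kb and 12.1 kb in the same order. The span ends at the last listed peak, so it is set in part by the peaks themselves.

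Sequences listed by 1 replicate only held few peaks each. For H3K4me3, 46 of 479 sequences were listed in replicate 1 only and 21 of 454 in replicate 2 only, and none of them had more than 2 peaks. For H3K27me3 the numbers were 57 of 469, with at most 3 peaks, and 32 of 444, each with 1 peak. Covered length per sequence ranked alike in the replicates, with a Spearman's rho of 0.93 over the 433 sequences that both H3K4me3 lists share and 0.95 over 412 for H3K27me3. Between the marks, rho was 0.80 over 401 sequences in replicate 1 and 0.85 over 363 in replicate 2. These are descriptions across sequences, which share their libraries and differ widely in length, and a longer sequence has more room for both marks.

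**Figure D1:**
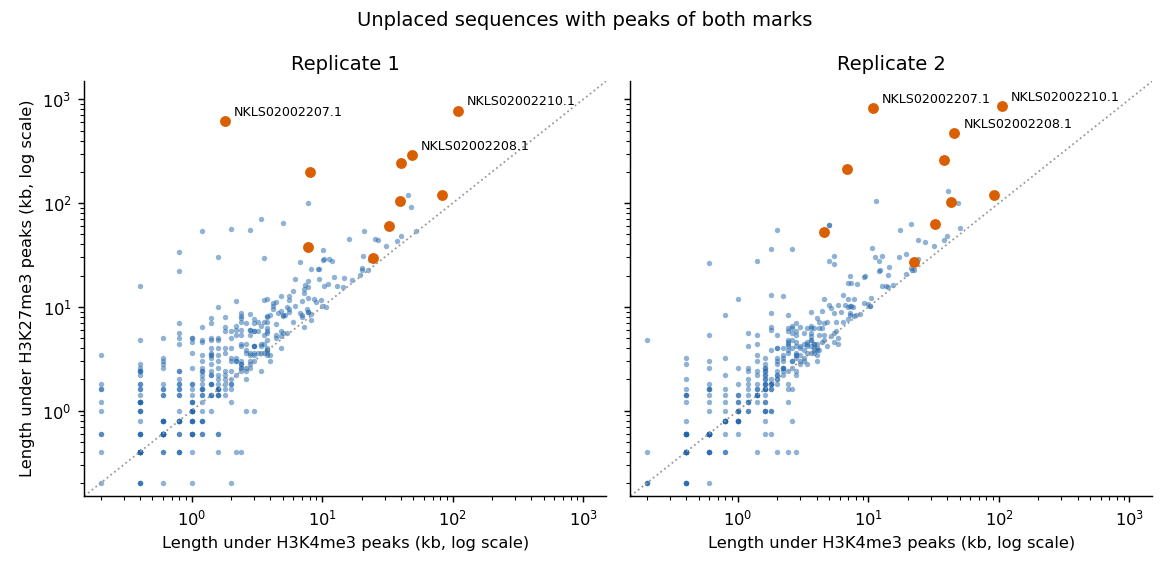
Length under H3K27me3 peaks against length under H3K4me3 peaks (both in kb, log scales) for each unplaced sequence with peaks of both marks in replicate 1 (401 sequences) and replicate 2 (363 sequences). Orange points are the 10 sequences with the most peaks, the dotted line marks equal lengths, and most points lie above it, NKLS02002207.1 farthest among the named ones.

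The main difference from the chromosomes was in how often the marks met. In replicate 1, 1057 of the 1308 unplaced H3K4me3 peaks overlapped an H3K27me3 peak of the same replicate number by at least 1 bp, which is 80.8% (95% Wilson interval 78.6% to 82.9%). On chromosomes 1 to 29 the share was 24.7%. In replicate 2 it was 934 of 1188, or 78.6% (76.2% to 80.9%), against 24.9%. The highest single chromosome stood at 31.8% in replicate 1 and 32.7% in replicate 2, so the unplaced share was above every one of the 29 chromosomes in both libraries. Seen from H3K27me3, 655 of 1162 unplaced peaks (56.4%, 53.5% to 59.2%) overlapped H3K4me3 in replicate 1 against 25.9% on the chromosomes, and 601 of 1094 (54.9%, 52.0% to 57.9%) in replicate 2 against 26.2%. The highest chromosome here was chromosome 23, with 50.2% and 45.6%. Intervals cover counting error only, and peaks of 1 sequence are not independent of each other.

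The differences of 56.2 and 53.7 percentage points for H3K4me3, and of 30.5 and 28.7 for H3K27me3, were many times the difference between replicates. An exact two-sided permutation test over the signs of the 4 within-library differences gave p = 0.13, which is the smallest value that 4 libraries allow, so this test cannot fall under 0.05 here. With the 2 libraries of 1 mark alone the smallest value is 0.5. All 4 differences had the same sign, but the H3K4me3 and H3K27me3 shares of 1 replicate number count the same overlaps from either side, so the 4 are not independent.

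H3K27me3 peaks covered 18.8% and 20.7% of the unplaced spans in replicates 1 and 2. Shares of a span are upper limits of coverage, because sequences without a peak and the stretch after the last peak are left out. On chromosomes 1 to 29, where this leaves out little, the median was 6.93% and 7.36%, and the unplaced values are not compared with it. Chromosome X, where H3K27me3 peaks covered 57.2% and 72.4%, had H3K4me3 peaks over H3K27me3 at 81.4% and 82.9%, close to the unplaced share. In the other direction chromosome X was far lower, with 6.92% and 8.81% of its H3K27me3 peaks over H3K4me3. Taken over all spans, unplaced sequences thus had a high share of overlap in both directions, and chromosome X in 1 direction. From the side of H3K27me3 this depended on span. On spans of 50 kb or more, which held 52.9% and 53.9% of the unplaced H3K27me3 peaks, 37.2% and 34.7% overlapped H3K4me3. These values lie below those of chromosome 23, at 50.2% and 45.6%.

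**Figure D2:**
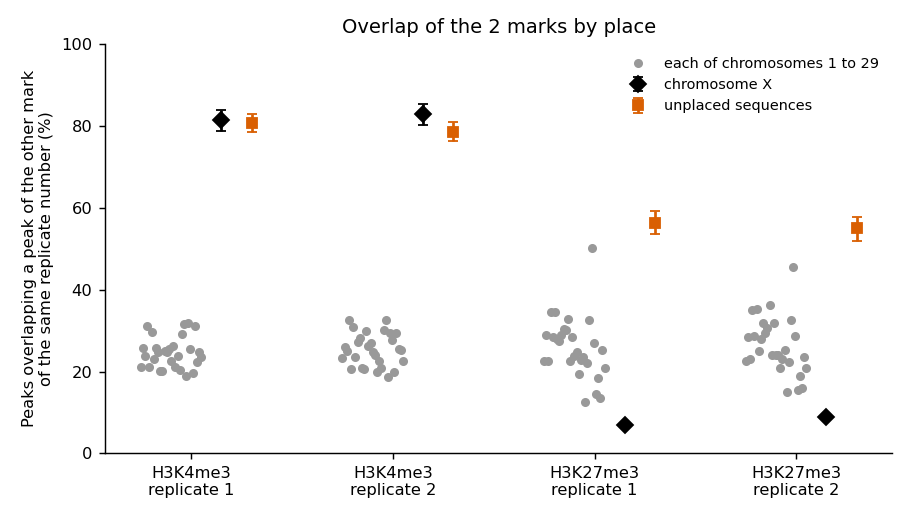
Share of the peaks of each list that overlap a peak of the other mark of the same replicate number (%), for each of chromosomes 1 to 29 (grey points), chromosome X (black diamonds) and unplaced sequences (orange squares), with 95% Wilson intervals on the last pair. Taken over all spans, unplaced sequences lie above all 29 chromosomes in each list, at 80.8%, 78.6%, 56.4% and 54.9%.

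Shared peaks gave the same picture. Peaks found in both replicates of a mark were merged into regions, which gave 997 unplaced H3K4me3 regions on 425 sequences and 892 unplaced H3K27me3 regions on 408 sequences. Of the 997, 785 lay over an H3K27me3 region, a share of 78.7% (76.1% to 81.2%), against 25% of the 18897 regions on chromosomes 1 to 29, where single chromosomes ranged from 19.0% to 33.1%. By length, 88.6% of the bases in unplaced H3K4me3 regions were also under H3K27me3, against 20.4% on chromosomes 1 to 29. Chromosome X was again near the unplaced level, with 84.0% of its 686 H3K4me3 regions over H3K27me3 and 80.7% of their bases. From the side of H3K27me3, 533 of 892 unplaced regions met H3K4me3 (59.8%, 56.5% to 62.9%), against 32.3% on chromosomes 1 to 29 and 11.2% on chromosome X. The share depended on narrow H3K27me3 peaks. With only H3K27me3 peaks of at least 2000 bp, 51.8% of the 997 unplaced H3K4me3 regions lay over one, against 24.4% on the chromosomes. When peaks scoring below their list's median were left out, 163 of 188 unplaced H3K4me3 regions (86.7%) lay over H3K27me3, and on the chromosomes the share was 13.7%.

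Windows of 200 bp that all 4 lists held in common numbered 6938 on unplaced sequences, which is 1.39 Mb on 334 sequences. They were 16.9% of all unplaced windows in any list, against 3.45% on chromosomes 1 to 29. Among the windows that both H3K4me3 replicates covered, 87.3% were in all 4 lists on unplaced sequences and 17.9% on the chromosomes.

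Overlapping regions also matched more closely in their limits. The 786 overlapping pairs of an H3K4me3 and an H3K27me3 region on unplaced sequences shared a median of 33.3% of their joint length, against 16.4% for the 4780 pairs on chromosomes 1 to 29. In 115 pairs (14.6%) both limits were identical, while on the chromosomes this was the case in 14 pairs (0.293%). At least 1 limit fell within 1 window of the other mark's limit in 62.3% of the unplaced pairs and in 9.46% of those on the chromosomes. In most pairs the H3K4me3 region lay inside the H3K27me3 region, with 70.7% on unplaced sequences and 76.8% on the chromosomes. The reverse order, H3K27me3 inside H3K4me3, was found in 49 unplaced pairs (6.23%) and 83 chromosomal ones (1.74%). The H3K27me3 region was 3 times as wide as its H3K4me3 partner at the median, compared with 5 times on the chromosomes. Unplaced regions were narrower, with medians of 1200 bp against 3200 bp for H3K4me3 and 4000 bp against 10400 bp for H3K27me3. Pairs of equal width were not compared. In addition, 17 to 20 unplaced peaks a list began at the first base of their sequence, against 0 or 1 on chromosomes.

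Unplaced peaks were narrow. The median width of unplaced H3K4me3 peaks was 800 bp in replicate 1 and 1000 bp in replicate 2, against 2200 bp and 2600 bp on chromosomes 1 to 29. For H3K27me3 the medians were 3200 bp and 3400 bp, against 6800 bp and 7400 bp. No single chromosome had a median below 1600 bp and 2000 bp for H3K4me3, both on chromosome 23, or below 6000 bp and 6200 bp for H3K27me3. Widths under 1 kb made up 50.8% and 46.7% of the unplaced H3K4me3 peaks but 10.9% and 5.90% of those on the chromosomes. The within-library differences were -1400 bp and -1600 bp for H3K4me3 and -3600 bp and -4000 bp for H3K27me3, larger than the spread between replicates in both marks, and the exact permutation p over the 4 libraries was again 0.13. A peak cannot be wider than its sequence, whose full length is not given here. On spans of 50 kb or more the mean differences were -1100 bp for H3K4me3 and -2600 bp for H3K27me3.

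Peaks of a single window show the same at the lower end. Replicate 1 of H3K4me3 listed 151 peaks of 200 bp, 97 of them unplaced, and replicate 2 listed 86, 61 of them unplaced. For H3K27me3 the numbers were 22 of 30 and 18 of 28. Unplaced sequences held about 5% of the peaks of each list, but between 64.2% and 73.3% of these narrowest ones. Among the unplaced single-window H3K4me3 peaks, 59 of 97 and 44 of 61 overlapped a peak of the other replicate. This was a lower share than the 1095 of 1308 and 1059 of 1188 among all unplaced H3K4me3 peaks. Overlap with H3K27me3 was also less frequent in these narrowest peaks. It was found in 43 of 97 and 25 of 61, against 1057 of 1308 and 934 of 1188 among all.

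A few unplaced peaks were very wide. Peaks of 20 kb or more numbered 4 unplaced and 12 on chromosomes 1 to 29 in each H3K4me3 list. For H3K27me3 they were fewer in proportion than on the chromosomes, at 5.59% and 7.04% of unplaced peaks against 12.0% and 14.2%. The widest H3K4me3 peak of the whole replicate 1 list was unplaced, with 46.8 kb on NKLS02000239.1.

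The score of a peak is the authors' own whole number, whose meaning the lists and the study's text do not name, so scores are not compared between lists and are given mainly as percentiles within a list. Scores of single peaks are printed as the list has them. Unplaced H3K4me3 peaks had a median score percentile of 27.7 in replicate 1 and 25.1 in replicate 2, against 51.9 in both lists for chromosomes 1 to 29. Unplaced H3K27me3 peaks stood at 34.4 and 26.2, against 50.7 and 46.7. Chromosome 23 was the only chromosome at a similar level for H3K4me3, with 25.1 and 24.0. The lowest decile of each list by score held 25.8% and 29.2% of the unplaced H3K4me3 peaks and 31.2% and 34.9% of the unplaced H3K27me3 peaks. All 4 differences were negative, from -16.4 to -26.8 percentile points, with an exact permutation p of 0.13 over the 4 libraries.

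The median score rank rose with width class in all 4 lists, and the order of the H3K27me3 peaks turned round when the score was divided by the number of windows in the peak. By score per window, unplaced H3K27me3 peaks had a median percentile of 86.4 and 83.7, against 53.1 and 49.8 on chromosomes 1 to 29, and no chromosome was above 67.1 and 66.0. The highest decile of the list by this measure held 45.2% and 41.5% of them. Peaks under 2000 bp were 32.4% and 31.4% of the unplaced H3K27me3 peaks, but 1.97% and 1.58% of those on chromosomes 1 to 29. Such narrow peaks stood high by this measure at either place. Unplaced H3K4me3 peaks stayed slightly below the chromosomes at the median, with 44.3 and 42.5 against 50.8 and 51.1. Their highest decile nevertheless held 12.3% and 13.7% of them, while the decile just below held 3.75% and 2.53%.

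Since score per window also differed with width, peaks were also set side by side within classes of width. Among H3K27me3 peaks under 2000 bp, the median percentile of score per window was 98.1 and 97.3 on unplaced sequences and 84.6 and 84.3 on chromosomes 1 to 29. From 2000 bp to 6000 bp it was 69.9 and 63.2 against 42.3 and 37.4, and at 6000 bp or more 76.9 and 73.6 against 61.7 and 58.3. H3K27me3 peaks were therefore higher per window on unplaced sequences in each class and each library. H3K4me3 differed by class. Unplaced H3K4me3 peaks were higher under 1000 bp (50.8 and 52.2 against 30.5 and 32.5) and from 1000 bp to 2000 bp (32.1 and 30.7 against 21.4 and 22.5), and lower at 2000 bp or more (42.1 and 35.5 against 70.4 and 66.3).

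**Figure D3:**
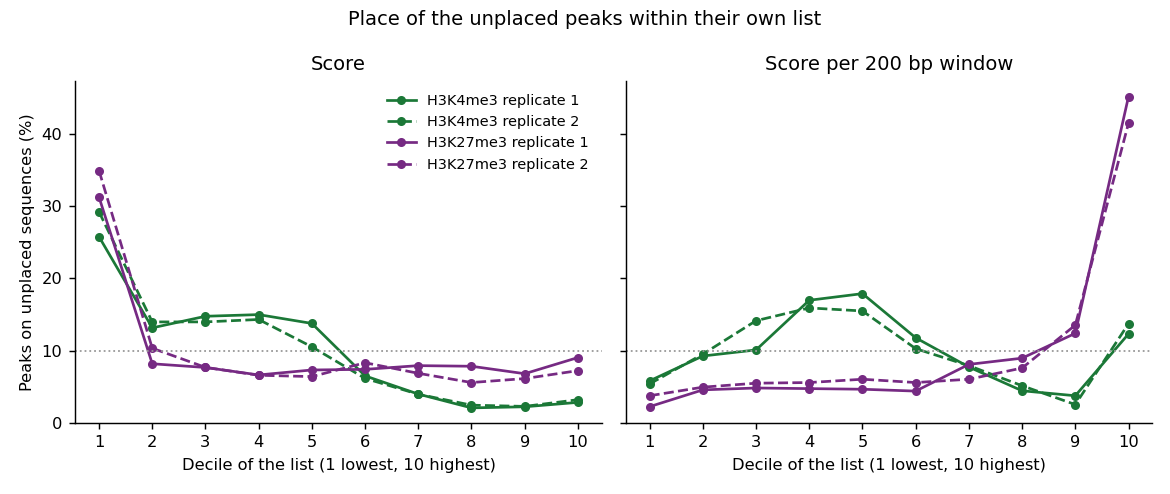
Share of the unplaced peaks (%) in each decile of their own list, ordered by score (left) or by score per window of 200 bp (right), for H3K4me3 (green) and H3K27me3 (purple), replicate 1 solid and replicate 2 dashed. The dotted line marks the 10% that an even spread would give, and the highest decile by score per window holds 45.2% and 41.5% of the unplaced H3K27me3 peaks.

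The overlap of the marks held in each of these width classes. Under 1000 bp, 71.9% and 66.3% of unplaced H3K4me3 peaks overlapped H3K27me3, from 1000 bp to 2000 bp 86.0% and 86.2%, and at 2000 bp or more 96.1% and 93.4%. On chromosomes 1 to 29 the shares were 26.3% and 30.4%, 26.8% and 27.5%, and 23.2% and 23.3%. The share thus rose with width on unplaced sequences and stayed near one level on the chromosomes. Narrow H3K27me3 peaks, under 2000 bp, overlapped H3K4me3 most often, at 79.5% and 79.7% on unplaced sequences against 32.8% and 48.1%.

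The top of the lists by score per window was largely unplaced and largely overlapped peaks of the other mark. Whether the signal there depended on the antibody was not tested, since there is no control library. Among the 100 H3K4me3 peaks of highest score per window, 76 in replicate 1 and 74 in replicate 2 were unplaced, and 75 and 73 of these overlapped H3K27me3. Among the 100 highest H3K27me3 peaks, 76 and 71 were unplaced, and all of them overlapped H3K4me3. The other mark's peak was often in its own top 100, for 44 and 40 of the H3K4me3 peaks and for 38 and 36 of the H3K27me3 peaks. These peaks recurred, since 65 of the 76 and 65 of the 74 unplaced H3K4me3 peaks met a top 100 peak of the other replicate, as did 59 of 76 and 59 of 71 for H3K27me3. The remaining peaks of the top 100, on chromosomes, overlapped the other mark in 20 of 24 and 19 of 26 cases for H3K4me3, and in 24 of 24 and 28 of 29 for H3K27me3. The large unplaced part was particular to score per window. By the score itself, 8 and 9 of the top 100 H3K4me3 peaks and 5 and 5 of the top 100 H3K27me3 peaks were unplaced. By width the numbers were 6 and 8 for H3K4me3 and 0 and 1 for H3K27me3.

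Over all overlapping pairs of an H3K4me3 and an H3K27me3 peak, score per window in the one went with score per window in the other on unplaced sequences. Spearman's rho was 0.42 over 1058 pairs in replicate 1 and 0.36 over 936 pairs in replicate 2, and on chromosomes 1 to 29 it was 0.01 over 5968 pairs and -0.04 over 5569. Between replicates of 1 mark, rho was 0.87 on unplaced sequences and 0.87 on chromosomes for H3K4me3, and 0.84 and 0.74 for H3K27me3. These values describe pairs of peaks within a library or between libraries, and pairs from 1 sequence are not independent.

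NKLS02001379.1 held the H3K27me3 peak of highest score per window of both whole lists, at 201 to 1800 in each replicate. Its score over 8 windows was 2107 in replicate 1, or 263 per window against a list median of 5.75, and 2633 in replicate 2, or 329 per window against 8.40. For H3K4me3 the highest unplaced peak per window lay on NKLS02000055.1 at 14801 to 15400 in replicate 1, with 195 per window, and on NKLS02001029.1 at 7601 to 8200 in replicate 2, with 173 per window. All of these peaks recurred in the other replicate and overlapped the other mark.

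Pooled over chromosomes 1 to 29, recurrence between replicates was near that of unplaced sequences, but for H3K4me3 this rested on chromosome 23. Of the unplaced H3K4me3 peaks, 83.7% (81.6% to 85.6%) in replicate 1 and 89.1% (87.2% to 90.8%) in replicate 2 overlapped a peak of the other replicate, against 82.9% and 89.6% on chromosomes 1 to 29. Unplaced H3K27me3 peaks recurred at 87.5% (85.5% to 89.3%) and 85.5% (83.3% to 87.4%), against 87.7% and 82.4%. The differences from the chromosomes were 0.83 and -0.49 percentage points for H3K4me3 and -0.17 and 3.03 for H3K27me3. Their sign differed between the replicates of each mark, and the exact permutation p over the 4 libraries was 0.5. Both replicates of a mark count the same meetings of peaks, so their shares are not independent.

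Chromosome 23 held 10.4% and 9.85% of the H3K4me3 peaks on chromosomes 1 to 29, and only 55.3% and 61.2% of its peaks recurred. Unplaced H3K4me3 peaks recurred more often than those of 2 of the 29 chromosomes in replicate 1 (chromosomes 23 and 29) and of chromosome 23 alone in replicate 2. Without chromosome 23, a comparison added after its values were seen, the chromosomal recurrence of H3K4me3 was 86.1% and 92.7%. Unplaced sequences were then below it by -2.37 and -3.60 percentage points. For H3K27me3 the differences without chromosome 23 were -0.75 and 2.76 points.

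The makeup by score differed, however. The quartile of lowest score held 45.0% and 50.0% of the unplaced H3K4me3 peaks and 43.4% and 48.9% of the unplaced H3K27me3 peaks, compared with between 23.7% and 26.0% of the peaks on the chromosomes. Within that lowest quartile, unplaced H3K4me3 peaks recurred at 66.7% and 79.0%, and those on chromosomes 1 to 29 at 40.3% and 60.9%. In the second quartile it was 96.5% and 98.9% against 88.0% and 95.6%. For H3K27me3 the lowest quartile gave 72.6% and 74.2% against 68.5% and 56.5%, and the second 97.6% and 89.8% against 83% and 78.9%. At equal score quartile, recurrence was higher on unplaced sequences in both lower quartiles of all 4 lists, and averaged over the 4 quartiles by 7.06 percentage points for H3K4me3 and 6.18 for H3K27me3. Chromosome 23 made up 21.8% of the chromosomal H3K4me3 peaks of the lowest quartile in each replicate. Without it the chromosomal H3K4me3 values were 43.1% and 67.1% in the lowest quartile and 91.0% and 98.0% in the second, still below the unplaced ones, and the average differences were 5.25 points for H3K4me3 and 5.93 for H3K27me3. In the upper quartiles nearly all peaks recurred at either place.

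**Figure D4:**
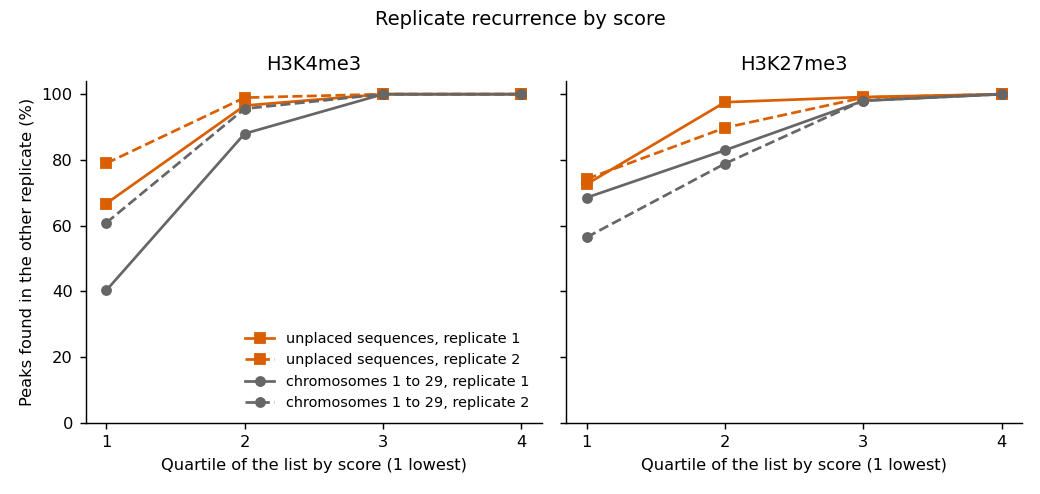
Share of peaks that overlap a peak of the other replicate of the same mark (%) by quartile of the list by score, for H3K4me3 (left) and H3K27me3 (right), on unplaced sequences (orange) and chromosomes 1 to 29 (grey), replicate 1 solid and replicate 2 dashed. In the lowest quartile the unplaced H3K4me3 values of 66.7% and 79.0% lie above the chromosomal 40.3% and 60.9%, and in the highest quartile all lines are at or near 100%.

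Peaks that overlapped the other mark recurred more often. On unplaced sequences, H3K4me3 peaks over H3K27me3 recurred at 88.6% and 92.4%, and those without it at 62.9% and 77.2%. The latter were narrow, with medians of 400 bp and 600 bp, and low in score, at percentiles of 7.37 and 5.28. H3K27me3 peaks with H3K4me3 had a median width of 2200 bp in both replicates, a score per window at percentiles of 97.0 and 96.5 and a recurrence of 88.9% and 94.5%. Without H3K4me3 they were 4200 bp and 4600 bp wide, stood at percentiles of 61.8 and 55.8 per window and recurred at 85.8% and 74.4%. The chromosomes showed the opposite order of widths for H3K27me3, with 8000 bp and 8600 bp over H3K4me3 and 6400 bp and 7000 bp without it.

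The values varied with the span of the sequence. On the 193 sequences under 10 kb, the median H3K27me3 width was 1600 bp and 1700 bp, the percentile of score per window 97.4 and 96.4, and the share of H3K27me3 peaks over H3K4me3 85.2% and 86.1%. On the 277 sequences from 10 kb to 50 kb, the width was 2400 bp in both replicates and the share over H3K4me3 75% and 75.6%. On the 109 sequences of 50 kb or more, the width was 4400 bp and 4600 bp, the percentile per window 73.4 and 69.7, and the share over H3K4me3 37.2% and 34.7%. Sequences of longer span were therefore nearer to the chromosomes in their H3K27me3 peaks. The span is set by these same peaks and is not the full length, so a short span cannot hold a wide peak. The widths by span were thus partly fixed by the definition. The share of H3K4me3 peaks over H3K27me3 did not fall with span. It was 75.2% and 76.8% under 10 kb, 79.3% and 76.1% between, and 84.8% and 82.0% at 50 kb or more.

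Single sequences differed strongly from each other, as the 10 with the most peaks show. NKLS02002208.1, the longest, was sparsely marked. It held 26 and 22 H3K4me3 peaks and 71 and 112 H3K27me3 peaks in replicates 1 and 2, with H3K27me3 over 3.14% and 5.12% of its span. Only 8 of the 26 and 9 of the 22 H3K4me3 peaks there overlapped H3K27me3. NKLS02002210.1, with a span of 979.6 kb, was its contrast. H3K27me3 covered 79.4% and 87.6% of that sequence, and all of its 48 and 38 H3K4me3 peaks lay over H3K27me3.

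NKLS02002207.1 was marked mainly by H3K27me3, which covered 56.9% and 76.3% of 1078.4 kb, while H3K4me3 had 2 and 6 peaks that covered 0.17% and 1.00%. NKLS02002204.1 was alike, with 61.5% and 65.5% of 325.4 kb under H3K27me3 and 2.46% and 2.09% under H3K4me3. On NKLS02000412.1 the marks covered 71.2% and 75.7% (H3K27me3) and 11.8% and 11.2% (H3K4me3) of 340.8 kb. NKLS02001178.1, with a span of 144.0 kb, was under H3K27me3 for 83.1% and 83.5% and under H3K4me3 for 57.1% and 63.5%. All of its 24 and 22 H3K4me3 peaks lay over 2 wide H3K27me3 peaks. NKLS02002005.1 had 30.7% and 31.0% of its 105 kb under H3K4me3 and 57.0% and 59.6% under H3K27me3, and NKLS02000125.1 had 14.8% and 16.2% under H3K4me3 and 39.7% and 38.9% under H3K27me3. On NKLS02000643.1 the covered shares of both marks were close, with 20.9% and 18.8% for H3K4me3 and 25% and 22.9% for H3K27me3. NKLS02002206.1 was low in both marks, at 1.79% and 1.06% for H3K4me3 and 8.58% and 12.2% for H3K27me3.

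**Figure D5:**
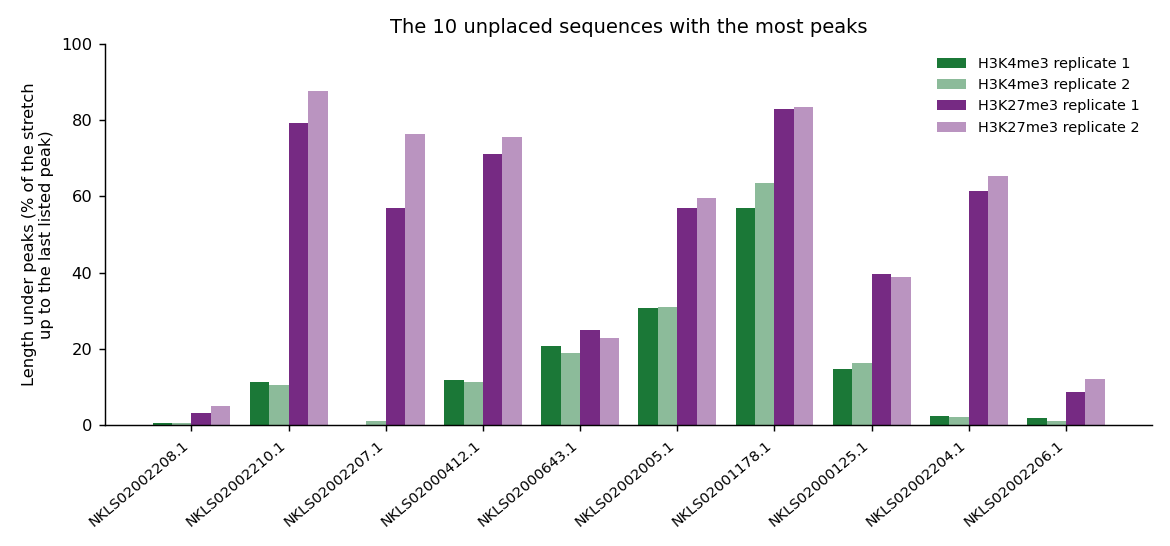
Share of the span under peaks (%) for the 10 unplaced sequences with the most peaks over the 4 lists, with H3K4me3 in green and H3K27me3 in purple, replicate 1 dark and replicate 2 light. H3K27me3 covers more of each sequence than H3K4me3, from 3.14% and 5.12% on NKLS02002208.1 up to 83.1% and 83.5% on NKLS02001178.1 and 79.4% and 87.6% on NKLS02002210.1.

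Among the 109 sequences of 50 kb or more, 24 were under H3K27me3 for over 50% of their span in both replicates. H3K4me3 covered a median of 13.3% of these 24 in both replicates, and 4 of them had no H3K4me3 peak in either list. Another 4 of the 24 were also under H3K4me3 for over 50% in both replicates, namely NKLS02001178.1, NKLS02001768.1, NKLS02000995.1 and NKLS02000239.1. For comparison, the median over all 109 was 11.5% under H3K27me3 in both replicates and 2.23% and 2.37% under H3K4me3.

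The widest unplaced H3K4me3 regions lay on sequences that spanned between 52.2 kb and 61.6 kb. On NKLS02000239.1 of ARS-UCD1.2, the region from 9601 to 56400 was 1 peak of 46.8 kb in replicate 1 and 3 peaks in replicate 2, the best of 30.0 kb, on a span of 57.2 kb. H3K27me3 covered all of it in both replicates. Its score was at percentile 99.9 and 99.6 of the list, but its score per window only at 40.1 and 34.2. The next widest, at 23201 to 50400 on NKLS02000995.1, was 1 peak of 27.2 kb and 26.2 kb, and the third, at 15601 to 40800 on NKLS02001768.1, was made of 4 and 3 peaks. H3K27me3 covered both of these completely as well.

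The unplaced H3K4me3 regions of highest score were narrower. At 20401 to 34600 on NKLS02001231.1 the best peak scored 3824 in replicate 1 and 2708 in replicate 2, at percentiles of 99.96 and 99.92. At 27201 to 33600 on NKLS02001242.1 the peak was listed with identical limits by each replicate, with scores of 3073 and 3026. At 30801 to 34600 on NKLS02000134.1 the limits were again the same and the scores 2696 and 2502. In contrast to the widest regions, these 3 were also near the top by score per window, between percentiles 99.6 and 99.94. H3K27me3 covered the first pair completely in both replicates, and the third for 94.7% and 100%.

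The widest H3K27me3 regions were 3 stretches of NKLS02002210.1, of 248.8 kb at 102401 to 351200, 188.8 kb at 665401 to 854200 and 124.2 kb at 855401 to 979600. Replicate 1 listed them as 10, 7 and 3 peaks and replicate 2 as 3, 2 and 1. H3K4me3 peaks covered between 10.1% and 33.7% of each, as 9 to 16 separate peaks a library. The H3K27me3 regions of highest score lay on sequences already named above for H3K4me3. They were at 1 to 57200 on NKLS02000239.1, with best scores of 9603 and 15800, at 18601 to 34800 on NKLS02001231.1, with 9879 and 13391, and at 58401 to 144000 on NKLS02001178.1, with 8379 and 13171. All 3 stood at or above percentile 99.6 of both lists, and H3K4me3 covered between 69.2% and 95.1% of them.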

How the data were processed

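CUT&RUN libraries of bESCs were prepared for H3K4me3 and H3K27me3, 2 replicates each. Per the labels and the study's methods, the authors trimmed reads with Trim Galore and cutadapt 1.18, used BWA 0.7.17-r1188 for alignment to ARS-UCD1.2, removed duplicates and low-quality alignments, and listed peaks per library with epic2, in windows of 200 bp and with wider gaps allowed for H3K27me3. The labels give version 0.0.41 under the name SICER. No control library is stated. The deposited lists give peak positions and the authors' score, whose unit is not named. Depth is unknown.

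Positions were counted from 1 and percentiles taken within each list, with tied scores given their mean rank. Overlap meant at least 1 bp unless stated. Within-library differences were tested by exact sign permutation over libraries. The overlap step was tested on simulated lists and gave, at 1 bp, the same counts as bedtools 2.31.1. Scripts ran in Python 3.11.15 with scipy 1.17.1, pandas 2.3.3, matplotlib 3.10.9 and numpy 2.4.6. The members, comparisons and alternatives were chosen with earlier results of these data known. Width and span classes, limits, common windows, top 100 counts and the comparison without chromosome 23 were added after the lists were seen. The sequences named in detail were the 10 with the most peaks over the 4 lists and, per mark, the 3 widest shared regions and the 3 of highest score rank. The peaks of highest score per window, the widest H3K4me3 peak of a list and the sequences mostly under H3K4me3 were named after their values were seen. No genes were assigned, because the gene table used belongs to another assembly.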

Additional observations from a re-analysis of the deposited data

Results flagged for a closer look

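By score per window, the difference between unplaced sequences and chromosomes 1 to 29 had opposite signs in the marks. The median percentile was lower on unplaced sequences in both H3K4me3 libraries, by -6.57 and -8.59 points, and higher in both H3K27me3 libraries, by 33.3 and 33.9 points. The mean differences of the marks were 41.2 points apart. Unplaced peaks were also narrower, and division by the number of windows raises narrow peaks relative to wide ones. Within each class of width, unplaced H3K27me3 peaks stood higher per window, with 76.9 and 73.6 against 61.7 and 58.3 at 6000 bp or more. Unplaced H3K4me3 peaks stood higher in the classes below 2000 bp and lower at 2000 bp or more. Whether width accounts for the difference was not tested. The difference between the marks was not tested, since 2 libraries a mark cannot bring an exact permutation test under 0.05.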

How the results depend on the processing

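Values below are differences, unplaced sequences minus chromosomes 1 to 29, as means over the replicates or, for H3K4me3 regions over H3K27me3, from regions shared by both. Differences within 1 library already pair the places by library. Between the marks, no paired analysis was possible because the line behind each library is not stated. No model across libraries was fitted in which a replicate block has a place.

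By score per window, the score rank of H3K27me3 turned from -18.4 to 33.6 points, and that of H3K4me3 moved from -25.5 to -7.58. Division by the number of windows raises narrow peaks relative to wide ones. Limited to peaks shared by both replicates, the H3K4me3 rank was -28.2. Without chromosome 23, an alternative added after the data were seen, it was -28.7. On spans of 50 kb or more the ranks were -23.3 (H3K4me3) and -10.6 (H3K27me3).

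The H3K4me3 width difference of -1500 bp was -750 bp when peaks below the median score were left out, -1100 bp on spans of 50 kb or more and -1700 bp among shared peaks. For H3K27me3, -3800 bp became -2600 bp on spans of 50 kb or more, -4300 bp among shared peaks and -4100 bp with chromosome X in the comparison.

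Recurrence differed by 0.17 (H3K4me3) and 1.43 (H3K27me3) percentage points, and by 7.06 and 6.18 within score quartiles. On spans of 50 kb or more H3K4me3 gave -1.77. Without chromosome 23 H3K4me3 gave -2.98, and within score quartiles the marks gave 5.25 and 5.93.

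H3K4me3 regions over H3K27me3 differed by 53.7 percentage points, by 53.7 to 56.2 with a replicate left out, 73.0 without peaks below the median score, 27.4 when H3K27me3 peaks had to reach 2000 bp, 58.9 on spans of 50 kb or more and 51.6 with chromosome X in the comparison. The cause of these shifts was not tested. The other alternatives moved a value by no more than the SD between replicates. Depth is unknown, so a missing peak shows no absence.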
